A study of Mus musculus with 14 samples.

Results

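The genes described here act in the growth of blood vessels or mark the endothelial cells that line them, and they were followed in mouse uterus across pregnancy and after antibody treatment. They were chosen by name from a list of 10, and the 8 with a probe named in the platform annotation of the authors' value table were measured, of 10478 genes tested in all. Vegfa and Angpt2 (ligands) and Flt1, Tek and Unc5b (receptors) form the growth factor and receptor set, and Pecam1, Cdh5 and Emcn form the vessel identity set. No probe was named for Angpt1 or Kdr, and these 2 genes were not analysed here. The data are 14 Illumina arrays of total uterine RNA from C57BL/6 mice aged 8 weeks, of which 4 came from pregnant females treated with PC61, 5 from pregnant females treated with PBS and 5 from females that were not pregnant. Pregnant uteri were collected at day 12 after fertilization. The antibody PC61 binds CD25, the alpha chain through which regulatory T cells take up interleukin-2, and the series describes the treated mice as depleted of these cells. The series design sets PC61 against PBS, and the non-pregnant group also lets pregnancy itself be compared. Samples of a group are numbered, and no label states that each is its own animal. The spread behind every p-value is therefore that of these samples, and may be technical. The labels give no dose, day of injection or mating partner for PC61 or PBS.

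Vessels grow when VEGF, encoded by Vegfa, binds receptors on endothelial cells. Flt1 encodes VEGF receptor 1, which binds VEGF tightly and also exists as a soluble form made by trophoblast. Angpt2 is a ligand of the receptor Tie2, encoded by Tek, and can oppose the vessel-stabilizing ligand Angpt1. Unc5b is a netrin receptor that guides sprouting endothelial cells. Cdh5 (VE-cadherin) and Pecam1 (CD31) hold endothelial cells together, and Emcn (endomucin) coats capillary and venous endothelium. In early mouse pregnancy the decidua, which is the transformed lining of the uterus, becomes densely vascular before the placenta takes over exchange.

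The arrays were comparable in yield, with 16607 to 19729 probes detected and a median intensity of 93.0 to 139. The labels were checked against markers. Acta2, smooth muscle actin, lay at 13.68 to 15.01 on the log2 scale on the PC61 arrays, 14.05 to 14.54 in PBS uteri and 14.73 to 14.97 in non-pregnant uteri. Hbb-y, an embryonic globin, lay at 13.91 to 14.88 on the PC61 arrays and 14.67 to 14.89 on the PBS arrays, and was not above background on any non-pregnant array. The PC61 arrays stood apart from one another, with pairwise correlations of 0.861 to 0.980, against 0.971 to 0.987 among the PBS arrays and 0.939 to 0.989 among the non-pregnant arrays. The decidual hormone gene Prl8a2, of the prolactin family, had 5.85 on PC61 array 1 and 13.58 to 13.65 on the other 3. In PBS uteri it had 12.78 to 14.02, and it was not above background in non-pregnant uteri. Among the pregnant arrays, PC61 array 1 alone was low in this transcript.

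Unc5b and Vegfa were the 2 of the 8 genes whose PC61 and PBS arrays did not overlap, in opposite directions. Of all genes 1.81% did not overlap, and for Vegfa the separation rests on the brighter of its 2 probes. Upstream sequences of Unc5b and Vegfa are shown because of this lack of overlap. The windows are the 250 bases before the start in the RefSeq table (build GRCm38.p6), 5′ to 3′ on the strand of the gene. Capitals mark matches on either strand to GGAAG, the core read by ETS factors that act in endothelium, or to ACGTG or GCGTG, the core of the hypoxia response element. Unc5b lies on the minus strand with its window at chr10:60831582-60831831, and Vegfa on the minus strand at chr17:46032378-46032627.
Unc5b: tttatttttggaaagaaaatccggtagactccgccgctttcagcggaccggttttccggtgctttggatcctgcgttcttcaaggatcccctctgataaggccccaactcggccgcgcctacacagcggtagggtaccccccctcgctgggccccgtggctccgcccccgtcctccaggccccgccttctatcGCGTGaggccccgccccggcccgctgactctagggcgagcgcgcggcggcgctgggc
Vegfa: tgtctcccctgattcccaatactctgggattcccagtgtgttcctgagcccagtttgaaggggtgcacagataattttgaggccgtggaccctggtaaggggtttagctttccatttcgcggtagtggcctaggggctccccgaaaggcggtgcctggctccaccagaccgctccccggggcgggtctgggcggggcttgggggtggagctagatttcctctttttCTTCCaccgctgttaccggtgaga
The Unc5b window held 1 hypoxia-type match, 57 bases before the start, and 0 ETS matches. The Vegfa window held 1 ETS match, 24 bases before the start, and 0 hypoxia-type matches. No matches overlapped. Of 32851 windows of the same length, 64.1% held the ETS core and 38.6% the hypoxia core, so either match is common and is given only as a description. Such windows were available for 5 of the 8 genes. Only those of Unc5b and this one of Vegfa lay wholly outside the annotated gene, and only these were printed.

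At day 12 of pregnancy Angpt2, Unc5b, Cdh5 and Flt1 were higher in the PBS-treated uterus than in the non-pregnant uterus, and Emcn, Tek and Vegfa were lower. Unc5b was 10.2-fold and Angpt2 9.30-fold higher, Cdh5 4.26-fold and Flt1 2.54-fold. The size for Unc5b, which was dim in non-pregnant uterus, depended on the background correction: its log2 fold change of 3.36 was 1.86 in the authors' value table and 1.89 without background correction, where Angpt2 had 2.80 in both and Cdh5 1.89 and 1.88. Emcn stood at 0.418 of the non-pregnant level, Tek at 0.571 and Vegfa at 0.637. Limma, fitted across all genes with Benjamini-Hochberg adjustment and a threshold of 0.05, thus called 4 higher and 3 lower of the 8, where 46.6% of all genes were called, 22.9% higher and 23.7% lower. The groups did not overlap for 6 of the 8, against 41.2% of all genes (21.1% higher and 20.1% lower). After PC61 none of the 8 passed against PBS, in a comparison that called 0.00% of all genes (0 of 10478, lowest adjusted p 0.154). At an unadjusted p under 0.05 it held 1621 genes, or 15.5%, and 4 of the 8 were among them. PC61 and PBS arrays did not overlap for 2 of the 8, against 1.81% of all genes. Without PC61 array 4, 3 of the 8 (Flt1, Unc5b and Emcn) passed, as did 1528 genes in all. For Flt1 and Emcn this left out the PC61 array that lay above or among the PBS values. The PC61 values were uneven: Flt1 was low on arrays 1 to 3, Angpt2 and Cdh5 on array 1 alone, and Unc5b on all 4. In bulk tissue, fewer cells of a type and less RNA per cell cannot be told apart.

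**Figure D1:**
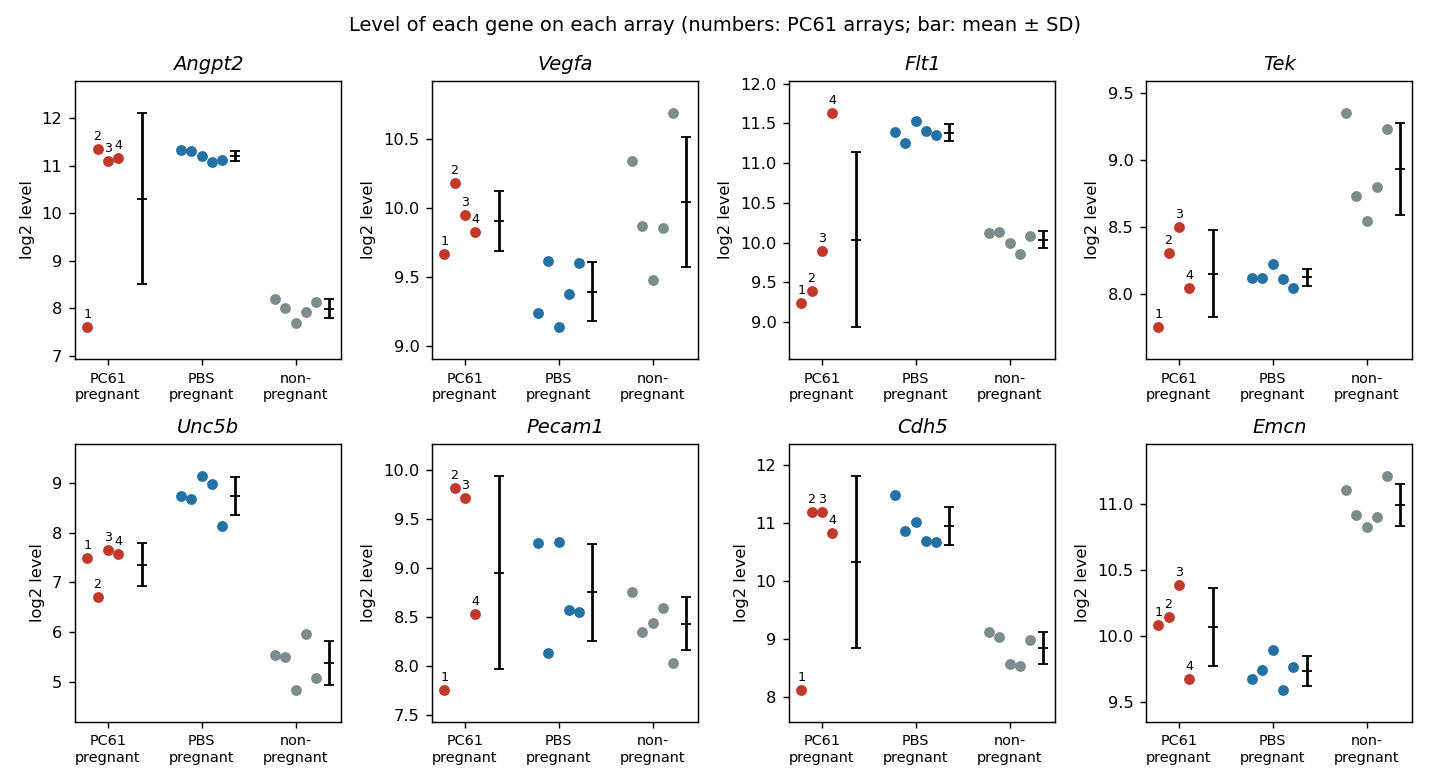
Normalized log2 level of each of the 8 genes (vertical axis, scales differ by panel) on each array, for the PC61, PBS and non-pregnant groups, with a bar for the mean and SD of each group; small numbers name the PC61 arrays. Angpt2 and Cdh5 were at 7.61 and 8.13 on PC61 array 1, while Unc5b lay between 6.71 and 7.64 on all 4 PC61 arrays, under every PBS array.

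Among the ligands, Angpt2 (chromosome 8, 18690263 to 18741562, GRCm38.p6, whole gene) had log2 levels of 7.61, 11.36, 11.11 and 11.16 on PC61 arrays 1 to 4. It had 11.34, 11.31, 11.20, 11.08 and 11.12 on the PBS arrays, and 8.20, 8.01, 7.69, 7.92 and 8.14 in non-pregnant uteri. PC61 array 1 lay just under the lowest non-pregnant array, and the other 3 PC61 arrays lay within or next to the PBS range. The PC61 mean was 10.31 ± 1.80 (SD, n = 4), the PBS mean 11.21 ± 0.12 (n = 5) and the non-pregnant mean 7.99 ± 0.20 (n = 5). The log2 fold change of PC61 over PBS was -0.90 (SE 0.57, limma adjusted p = 0.450), and without PC61 array 1 it was 0.00 (SE 0.15, adjusted p = 1.00). PBS over non-pregnant was 3.22 (SE 0.54, limma adjusted p = 0.000247). PC61 over non-pregnant was 2.32 (SE 0.57, limma adjusted p = 0.00732), and 3.22 (SE 0.15) without PC61 array 1. The spread of this gene in the PC61 group came from a single array.

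Vegfa (chromosome 17, 46016993 to 46032377) had 9.67, 10.18, 9.95 and 9.83 on PC61 arrays 1 to 4. On the PBS arrays it had 9.24, 9.62, 9.14, 9.38 and 9.60, and in non-pregnant uteri 10.34, 9.87, 9.48, 9.86 and 10.69. Every PC61 array exceeded every PBS array, which held in this direction for 1.01% of all genes, but the gap between the nearest arrays was small. Its means were 9.91 ± 0.22 in the PC61 group, 9.40 ± 0.21 in the PBS group and 10.05 ± 0.47 in the non-pregnant group. The log2 fold change of 0.51 for PC61 over PBS (SE 0.22) did not pass (limma adjusted p = 0.289). Vegfa was lower in PBS than in non-pregnant uterus by limma (log2 fold change -0.65, SE 0.21, adjusted p = 0.0185), although these groups overlapped. This call was lost with median scaling, which gave -0.42 (adjusted p = 0.423). PC61 over non-pregnant was -0.14 (SE 0.22, limma adjusted p = 0.672).

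Among the receptors, Unc5b (chromosome 10, 60762594 to 60831581) had 7.49, 6.71, 7.64 and 7.57 on PC61 arrays 1 to 4. It had 8.74, 8.68, 9.14, 8.97 and 8.13 in PBS uteri and 5.53, 5.49, 4.84, 5.96 and 5.07 in non-pregnant uteri. The PC61 arrays lay between the other groups and overlapped neither. Not overlapping PBS from below held for 0.802% of all genes. One non-pregnant array was not above background. Means were 7.35 ± 0.43, 8.73 ± 0.39 and 5.38 ± 0.43 in the PC61, PBS and non-pregnant groups. PC61 over PBS was -1.38 on the log2 scale (SE 0.27), or 0.384 of the PBS level, with an unadjusted p of 0.000126, the fourth lowest of all genes, and a limma adjusted p of 0.154. Without PC61 array 4 it was -1.45 (adjusted p = 0.00437). PBS over non-pregnant was 3.36 (SE 0.25, limma adjusted p = 1.34e-07), and PC61 over non-pregnant was 1.98 (SE 0.27, adjusted p = 7.18e-05). The last was 0.88 (adjusted p = 0.000914) in the authors' value table.

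Flt1 (chromosome 5, 147561604 to 147726438) had 9.24, 9.39, 9.89 and 11.63 on PC61 arrays 1 to 4. On the PBS arrays it had 11.39, 11.25, 11.53, 11.41 and 11.35, and on the 5 non-pregnant arrays 9.86 to 10.13 with a median of 10.09. PC61 arrays 1 and 2 were under all non-pregnant arrays, array 3 was within their range, and array 4 was above all PBS arrays. Means were 10.03 ± 1.10, 11.39 ± 0.10 and 10.04 ± 0.11 in the PC61, PBS and non-pregnant groups. PC61 over PBS was -1.35 (SE 0.36, limma adjusted p = 0.154). It was -1.88 (SE 0.16, adjusted p = 3.32e-06) without PC61 array 4, the PC61 array that went the other way, so its removal favours the call. PBS over non-pregnant was 1.35 (SE 0.34, limma adjusted p = 0.00455). PC61 over non-pregnant was -0.01 (SE 0.36, adjusted p = 0.995), and -0.54 (adjusted p = 0.0254) without PC61 array 4.

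Tek (chromosome 4, 94739086 to 94874976) had 7.75, 8.30, 8.50 and 8.04 on PC61 arrays 1 to 4. It had 8.12, 8.12, 8.22, 8.11 and 8.04 in PBS uteri and 9.35, 8.73, 8.54, 8.80 and 9.23 in non-pregnant uteri. All pregnant arrays of both groups were under all non-pregnant arrays, and PC61 and PBS overlapped. PC61 over PBS was 0.03 (SE 0.19, limma adjusted p = 0.960). PBS over non-pregnant was -0.81 (SE 0.18, limma adjusted p = 0.00205) and PC61 over non-pregnant was -0.78 (SE 0.19, adjusted p = 0.00697). Both calls were lost with median scaling, at -0.60 (adjusted p = 0.222) and -0.94 (adjusted p = 0.0962).

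Among the vessel identity genes, Cdh5 (chromosome 8, 104101613 to 104144504) had 8.13, 11.19, 11.19 and 10.83 on PC61 arrays 1 to 4. It had 11.48, 10.86, 11.02, 10.70 and 10.68 in PBS uteri and 9.13, 9.03, 8.58, 8.54 and 8.99 in non-pregnant uteri. As for Angpt2, PC61 array 1 lay under every non-pregnant array and the other 3 lay within the PBS range. PC61 over PBS was -0.61 (SE 0.49, limma adjusted p = 0.559), and 0.12 (SE 0.21) without PC61 array 1. PBS over non-pregnant was 2.09 (SE 0.46, limma adjusted p = 0.00203). PC61 over non-pregnant was 1.48 (SE 0.49, adjusted p = 0.0359). That last call was lost without any 1 of the 5 non-pregnant arrays (1.40 to 1.55, adjusted p = 0.0516 to 0.0735), and without PC61 array 2, 3 or 4 (1.19, 1.19 and 1.31, adjusted p = 0.102, 0.0989 and 0.0906). Without PC61 array 1, which lay under every non-pregnant array, it was 2.21 (adjusted p = 3.84e-06), so this removal favours the call.

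Emcn (chromosome 3, 137341062 to 137431069) had 10.08, 10.14, 10.38 and 9.67 on PC61 arrays 1 to 4. It had 9.67, 9.74, 9.89, 9.59 and 9.76 in PBS uteri and 11.10, 10.91, 10.82, 10.90 and 11.21 in non-pregnant uteri. PC61 arrays 1 to 3 were above every PBS array, array 4 was among them, and all pregnant arrays were under all non-pregnant arrays. PC61 over PBS was 0.34 (SE 0.15, limma adjusted p = 0.312), and 0.47 (adjusted p = 0.0440) without PC61 array 4. That array was the PC61 array among the PBS values, so its removal favours the call. With median scaling PC61 over PBS was -0.01. PBS over non-pregnant was -1.26 (SE 0.15, limma adjusted p = 1.12e-05) and PC61 over non-pregnant was -0.92 (SE 0.15, adjusted p = 0.000492).

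Pecam1 (chromosome 11, 106654213 to 106715281) was the gene of the 8 that passed in no comparison. Its values were 7.76, 9.81, 9.71 and 8.53 on PC61 arrays 1 to 4. They were 9.25, 8.13, 9.26, 8.57 and 8.55 in PBS uteri and 8.75, 8.35, 8.44, 8.59 and 8.03 in non-pregnant uteri. All 3 groups overlapped, with the lowest and the highest of the 14 values both on PC61 arrays. PC61 over PBS was 0.20 (SE 0.38, limma adjusted p = 0.826), PBS over non-pregnant 0.32 (SE 0.35, adjusted p = 0.481) and PC61 over non-pregnant 0.52 (SE 0.38, adjusted p = 0.322). Without PC61 array 1 the last was 0.92 (adjusted p = 0.0442). Array 1 held the lowest value, so its removal favours this call.

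**Figure D2:**
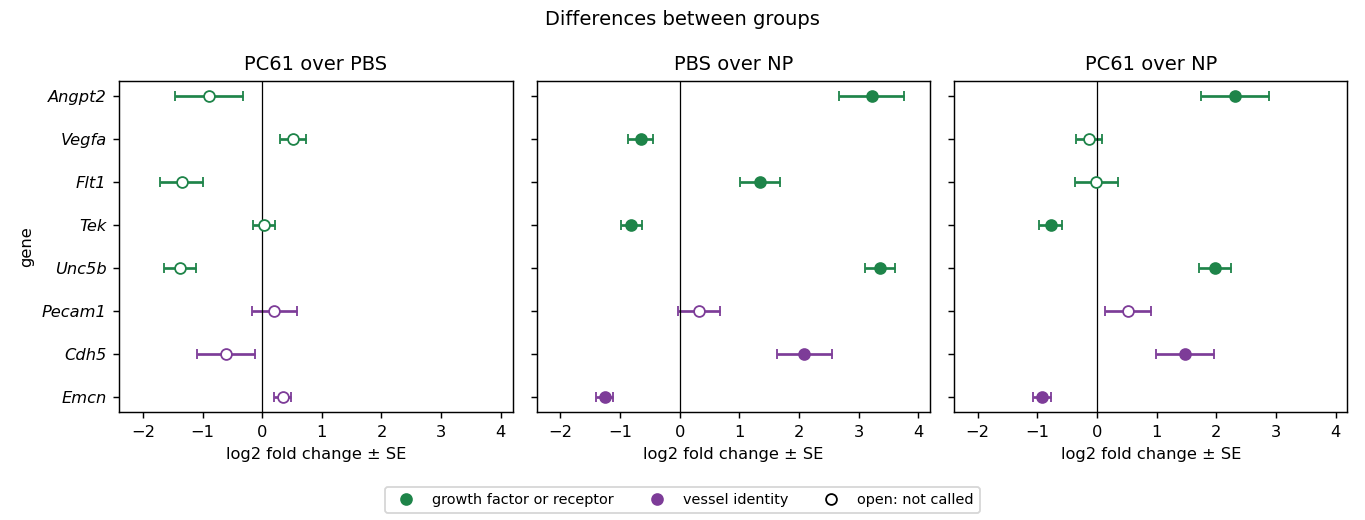
Log2 fold change with its standard error from limma (horizontal axis) for the 8 genes in PC61 over PBS, PBS over non-pregnant (NP) and PC61 over non-pregnant; filled points passed the adjusted p threshold of 0.05. No point is filled for PC61 over PBS, against 7 of 8 for PBS over non-pregnant and 5 of 8 for PC61 over non-pregnant.

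PC61 against non-pregnant uterus, which shares its arrays with the other comparisons, called 3 of the 8 genes higher (Angpt2, Unc5b and Cdh5) and 2 lower (Tek and Emcn), where 28.3% of all genes were called, 13.7% higher and 14.6% lower. These groups did not overlap for 3 of the 8 (1 higher and 2 lower), against 21.5% of all genes (9.78% higher and 11.7% lower). In order of mean level, PC61 stood between PBS and non-pregnant for Angpt2, Unc5b, Cdh5, Vegfa, Tek and Emcn. For Angpt2 and Cdh5 that order rests on PC61 array 1, without which PC61 over PBS was 0.00 and 0.12. The PC61 and PBS means did not pass the test for any of the 8 genes. The PC61 and non-pregnant means did not pass for Vegfa, Flt1 and Pecam1, and the PBS and non-pregnant means did not pass for Pecam1.

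The growth factors and receptors were then set beside the vessel identity genes. The median log2 fold change of PC61 over PBS was -0.90 over the 5 growth factor and receptor genes and 0.20 over the 3 identity genes, where the median of all genes was 0.01. For PBS over non-pregnant the medians were 1.35 and 0.32 (all genes -0.03), and for PC61 over non-pregnant -0.01 and 0.52 (all genes -0.02). Of the 5, 3 were called higher and 2 lower between PBS and non-pregnant uterus, and of the 3, 1 was called higher and 1 lower, so neither set moved one way. With so few genes the medians follow single members, and they carry no test. On PC61 arrays 1 to 4 the mean of the growth factor and receptor set relative to the PBS mean was -1.42, -0.58, -0.35 and -0.12, against -0.12 to 0.08 in PBS uteri and -1.66 to -1.06 in non-pregnant uteri. The identity set had -1.15, 0.57, 0.62 and -0.13 on the same PC61 arrays, -0.23 to 0.32 in PBS uteri and -0.53 to -0.15 in non-pregnant uteri. Both sets were lowest on PC61 array 1, and on arrays 2 and 3 they lay on opposite sides of the PBS range. Without PC61 array 1 the difference between the 2 medians for PC61 over PBS, -1.10 in all arrays, was -0.33.

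Markers of the other cells in the tissue moved with some of these genes. Trophoblast and placental markers, 15 measured of 20 listed, stood at -5.55, -5.23, -3.03 and 0.40 on PC61 arrays 1 to 4 relative to the PBS mean, against -0.20 to 0.16 in PBS uteri and -6.16 to -6.00 in non-pregnant uteri. Of these 15, 13 were not above background on any non-pregnant array. The order of the 4 PC61 arrays in this list was also their order in Flt1. Uterine natural killer cell markers, 7 measured of 10, stood at -3.72, 0.80, 0.72 and 0.27 on PC61 arrays 1 to 4, against -0.15 to 0.23 in PBS uteri and -3.44 to -3.27 in non-pregnant uteri. Decidual markers, 10 measured of 12, stood at -1.01, 0.45, 0.51 and -0.15, against -0.22 to 0.25 in PBS uteri and -1.12 to -0.23 in non-pregnant uteri. The low decidual means follow Prl8a2 in large part. It had 5.85 on PC61 array 1 and a mean of 4.53 in non-pregnant uteri, against a PBS mean of 13.52. Des, of the same list, had 13.63 on PC61 array 1 and a non-pregnant mean of 12.85, against 12.83. In PC61 over PBS 7 of the 10 had positive fold changes and 3 negative ones. Uterine epithelial markers, 8 measured of 10, stood at -0.98, 0.11, 0.07 and 0.14, against -0.26 to 0.21 in PBS uteri and 1.41 to 1.99 in non-pregnant uteri. Smooth muscle markers, 9 measured of 10, stood at 1.30, 1.85, 1.65 and -0.81 on PC61 arrays 1 to 4, against -0.17 to 0.31 in PBS uteri and 0.91 to 1.63 in non-pregnant uteri. Yolk sac and erythroid markers (10 measured of 12) stood at -0.35, -3.23, -2.62 and 0.09 on PC61 arrays 1 to 4, with -0.06 to 0.13 in PBS uteri and -7.16 to -6.78 in non-pregnant uteri. Leukocyte markers (5 of 9) stood at -0.60, 0.60, 0.94 and -0.11, with -0.23 to 0.17 in PBS uteri and 1.47 to 2.25 in non-pregnant uteri. Like Angpt2 and Cdh5, the natural killer, decidual, epithelial and leukocyte means were under their PBS range on array 1 alone of the PC61 arrays. Single members could differ. Krt8, of the epithelial list, had 10.51, 10.76, 11.53 and 13.64 in PC61 uteri 1 to 4, where its lowest PBS value was 13.22. Krt18 had 9.27, 10.35, 10.83 and 12.36, where that value was 11.75. Csf1r, of the leukocyte list, had 7.44, 8.74, 8.88 and 10.52, where it was 9.24. Fold changes of PC61 over PBS were negative for 5 epithelial markers and positive for 3. For leukocyte markers these counts were 1 and 4. The part of the cells marked by these lists in the levels of the 8 genes was not tested.

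**Figure D3:**
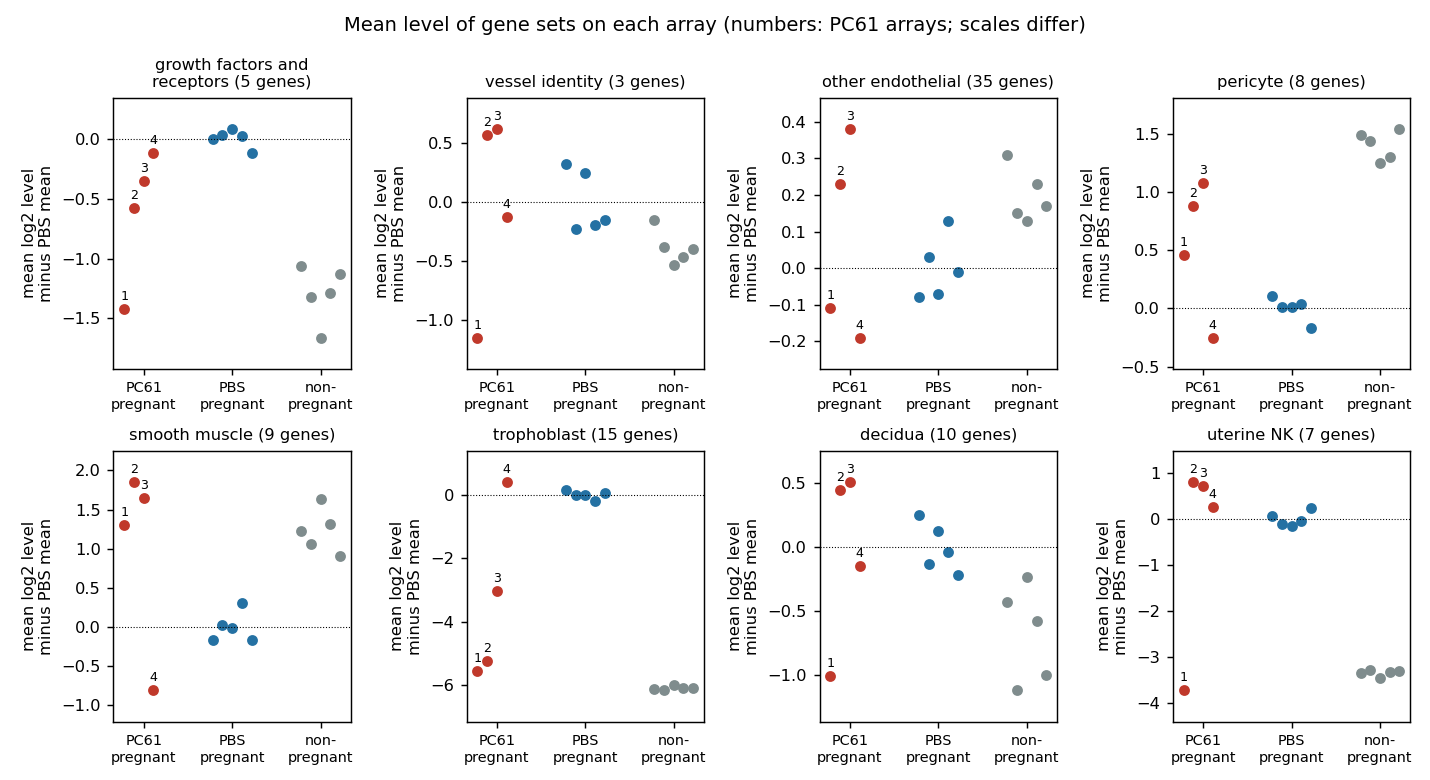
Mean log2 level of each gene set on each array minus its mean on the PBS arrays (vertical axis, scales differ by panel) in the PC61, PBS and non-pregnant groups; small numbers name the PC61 arrays and titles give the genes measured. On PC61 array 1 the vessel identity set was at -1.15 while the 35 other endothelial genes were at -0.11.

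The wider endothelial list shows how far the 3 identity genes speak for the cell type. Of 44 listed endothelial genes other than the 8, 35 were measured, and all but Procr were above background on at least 1 array of every group. Relative to PBS, their mean on PC61 arrays 1 to 4 stood at -0.11, 0.23, 0.38 and -0.19, against -0.08 to 0.13 in PBS uteri and 0.13 to 0.31 in non-pregnant uteri. Single genes of the list varied more than this mean: Cav1 was at 11.64 on PC61 array 1, above its PBS range of 9.94 to 10.82, and Sox17 was at 7.11, under its PBS range of 7.38 to 8.05. Between PC61 and PBS uterus 0 of the 35 passed limma, with a median of 0.11. At an unadjusted p under 0.05 there were 4 of 35, where 15.5% of all genes lay. Between PBS and non-pregnant uterus 7 of the 35 rose and 14 fell, where 22.9% and 23.7% of all genes did, and the median was -0.38. Tal1, a transcription factor of blood and endothelial precursors, rose by 2.80 on the log2 scale (SE 0.25, limma adjusted p = 8.30e-07), and Cldn5, a tight junction protein, by 1.26 (SE 0.18, adjusted p = 6.01e-05). Sox17, a factor of arterial endothelium, fell by 2.86 (SE 0.39, limma adjusted p = 4.56e-05), and Cd34, a surface sialomucin, fell by 2.35 (SE 0.34, adjusted p = 7.17e-05). Like Cdh5 and Emcn, these genes of the endothelial list went both ways with pregnancy. All 10 measured yolk sac and erythroid markers also rose between these groups, where 22.9% of all genes did. The part of blood and other cells in the changes of Tal1 and the other listed genes was not tested. After PC61, Stab2, a scavenger receptor of sinusoidal endothelium, had a log2 fold change of -1.06 over PBS (SE 0.35, limma adjusted p = 0.195), and Cav1, of caveolae, had 0.94 (SE 0.32, adjusted p = 0.206). Between PC61 and non-pregnant uterus 5 of 35 rose and 10 fell, where 13.7% and 14.6% of all genes did.

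Pericyte markers, which label the cells that wrap small vessels, were measured for 8 of 8 genes. Relative to PBS, their mean on PC61 arrays 1 to 4 stood at 0.46, 0.88, 1.08 and -0.25, against -0.17 to 0.11 in PBS uteri and 1.25 to 1.54 in non-pregnant uteri. Between PBS and non-pregnant uterus 6 of the 8 fell and 0 rose, where 23.7% and 22.9% of all genes did. Among the 6 were Anpep, an aminopeptidase (log2 fold change -4.70, SE 0.38, limma adjusted p = 3.63e-07), and Mcam (-0.81, SE 0.30, adjusted p = 0.0375). Between PC61 and PBS 0 of 8 passed. The fold changes were positive for 8 of 8, where 5401 of 10478 genes in all were positive, and their median was 0.48, against 0.01 over all genes. This was not particular to pericyte markers: smooth muscle markers had positive fold changes for 9 of 9, with a median of 1.04. Lymphatic endothelial markers were measured for 5 of 7, of which 3 rose and 2 fell between PBS and non-pregnant uterus (22.9% and 23.7% of all genes). Among these Pdpn (podoplanin) rose 2.84-fold and Reln (reelin) 2.16-fold (limma adjusted p = 8.55e-05 and 0.000405). Pdpn had a log2 fold change of 0.03 and Reln of -0.07 in PC61 over PBS (SE 0.23 and 0.21, limma adjusted p = 0.964 and 0.898).

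Other genes of the same pathways gave 0 calls between PC61 and PBS in limma: 0 of 5 VEGF family, 0 of 7 angiopoietin and Tie, 0 of 9 Notch, 0 of 17 guidance and 0 of 26 other angiogenic genes. At an unadjusted p under 0.05 there were 0, 0, 0, 2 and 4 in these lists, against 15.5% of all genes. The largest of the few named by lowest p were Sema3c, a semaphorin (1.04, SE 0.40, limma adjusted p = 0.245), and Angptl1 (-1.09, SE 0.71, adjusted p = 0.463). The negative Angptl1 mean hides a split within the PC61 group. Samples 1 and 4 had 8.81 and 7.89, over the highest PBS value of 7.71. Samples 2 and 3 had 4.67 and 4.30, below the lowest PBS value of 7.26. Angptl1 was above background in only 2 of the 4 PC61 samples, so the size of this difference is uncertain. Nos3, endothelial nitric oxide synthase, had 0.65 (SE 0.26, adjusted p = 0.257), and Ptprb, a phosphatase that acts on Tie2, had 0.50 (SE 0.24, adjusted p = 0.323).

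Between PBS and non-pregnant uterus the pathways gave calls in both directions, to be read against 22.9% of all genes that rose and 23.7% that fell. In the VEGF family 1 of 5 rose and 1 fell: Pgf, placental growth factor and a ligand of Flt1, rose by 0.89 (SE 0.25, limma adjusted p = 0.0104), and Nrp1, a VEGF co-receptor, fell by 1.17 (SE 0.20, adjusted p = 0.000261). Of 7 angiopoietin and Tie genes 3 rose and 2 fell, with Angptl1 at 2.20 (SE 0.67, limma adjusted p = 0.0148) and Angptl4, a fasting-induced lipase inhibitor, at -1.81 (SE 0.28, adjusted p = 0.000150). Of 9 Notch genes 2 rose and 0 fell, and they were the ligand Dll1 at 0.93 (SE 0.20, limma adjusted p = 0.00180) and the target Hey1 at 0.72 (SE 0.24, adjusted p = 0.0224). Pgf and Dll1 were above background on 2 of 5 non-pregnant arrays and Angptl1 on 3, so the sizes of these rises are uncertain. Among 17 guidance genes 7 rose and 3 fell. The netrin receptor Dcc, a partner of the UNC5 family in axon guidance, was not above background in non-pregnant uterus and was at least 1.38-fold higher (limma adjusted p = 5.39e-05). Flrt3, an UNC5 ligand, rose by 2.45 (SE 0.34, adjusted p = 5.90e-05), and Slit2 by 2.05 (SE 0.30, adjusted p = 9.56e-05). Of 26 other angiogenic genes 4 rose and 12 fell. Fgf1, a fibroblast growth factor, fell by 2.25 (SE 0.24, limma adjusted p = 5.93e-06), Serpinf1, which encodes the antiangiogenic factor PEDF, fell by 2.46 (SE 0.30, adjusted p = 1.78e-05), and Ccn2, a matricellular protein, rose by 1.99 (SE 0.27, adjusted p = 4.43e-05).

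Between PC61 and non-pregnant uterus the same lists gave 1 rise and 1 fall of 5, 1 and 1 of 7, 1 and 0 of 9, 6 and 1 of 17, and 8 and 5 of 26, where 13.7% of all genes rose and 14.6% fell. Pgf stood at 0.77 (SE 0.27, limma adjusted p = 0.0448), Nrp1 at -1.38 (SE 0.21, adjusted p = 0.000217) and Angptl4 at -1.59 (SE 0.30, adjusted p = 0.00124). On PC61 array 1 Pgf had 4.92, within its non-pregnant range of 4.52 to 5.46. Angpt4, a Tie2 ligand, was not above background in non-pregnant uterus, and its PC61 mean was at least 2.85-fold higher (limma adjusted p = 0.0201). On PC61 arrays 1 to 4 Angpt4 had 4.40, 8.39, 8.01 and 5.98, against 4.45 to 4.95 in non-pregnant uteri. It was above background on 3 of these PC61 arrays, so the difference does not hold for array 1. Ednrb, an endothelin receptor, was higher by 2.14 (SE 0.34, limma adjusted p = 0.000364).

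**Figure D4:**
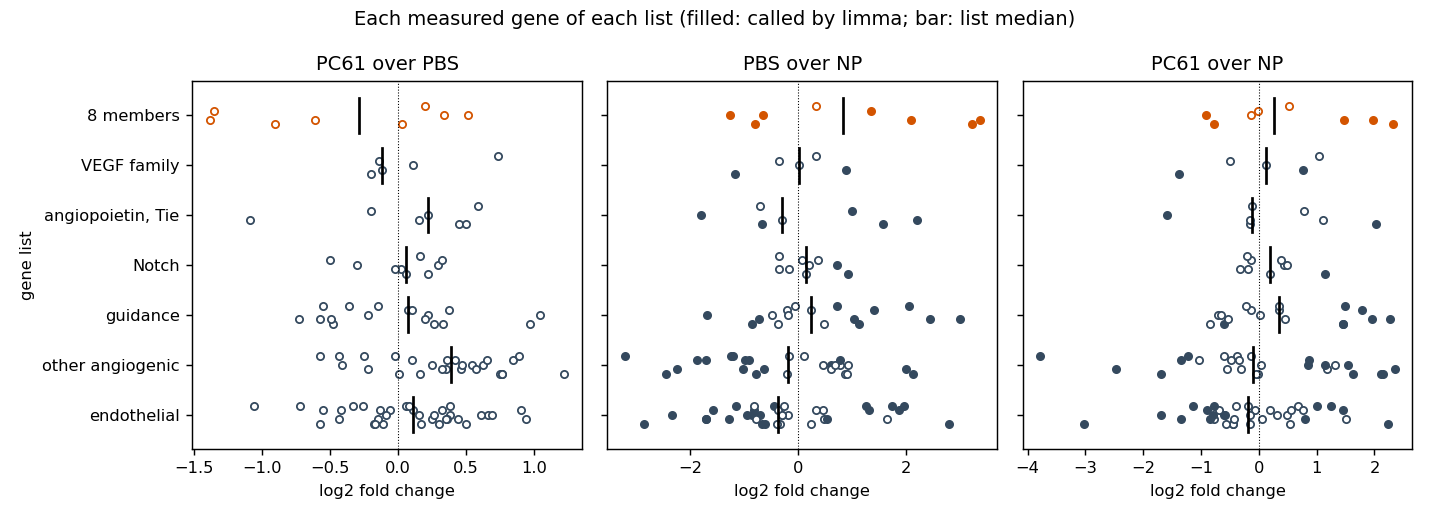
Log2 fold change (horizontal axis) of every measured gene of 7 lists in the 3 comparisons, with filled points for genes called by limma and a bar at each list's median. The 8 genes spread from -1.38 to 0.51 for PC61 over PBS and from -1.26 to 3.36 for PBS over non-pregnant (NP).

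Of all named genes outside the 8, those most like each member by Pearson's r over the 14 arrays were found as a description, since these arrays share 3 groups and points within a group are few. Angpt2 was nearest to Gzmd, a granzyme of uterine natural killer cells (r = 0.994), and to Slc6a12, a betaine transporter (r = 0.990). Gzmd was also the nearest to Cdh5 (r = 0.979), followed by Jade1 (r = 0.977). Angpt2 and Cdh5 themselves correlated at 0.98 over 14 arrays and at 0.98 over the 9 pregnant arrays. Gzmd had 4.84, 14.77, 14.69 and 14.17 on PC61 arrays 1 to 4, so these correlations rest largely on array 1 and on the step between non-pregnant and pregnant groups. Flt1 was nearest to Slc22a18, a transporter gene of an imprinted cluster (r = 0.989), and to Nostrin, which binds nitric oxide synthase (r = 0.977). Slc22a18 had 6.37, 6.64, 7.15 and 9.71 on PC61 arrays 1 to 4, against 9.40 to 9.74 in PBS uteri and 7.08 to 7.78 in non-pregnant uteri, which is the order seen in Flt1. Unc5b was nearest to Ankrd1 (r = 0.974) and Fga (r = 0.959). Emcn was nearest to Abcc9, one of the pericyte markers (r = 0.984), and to Cyp7b1 (r = 0.983), and Tek to Exosc1 (r = 0.940) and Slc1a5 (r = 0.931). Over the 9 pregnant arrays Tek had r = 0.723 with Exosc1 and 0.791 with Slc1a5, and Unc5b had 0.923 with Ankrd1 and 0.812 with Fga. Slc1a5 was not above background in pregnant uteri of either group, nor Ankrd1 and Fga in non-pregnant uteri. Vegfa was nearest to Itgb8 (r = 0.926) and Ptprb (r = 0.888), and Pecam1 to Susd1 (r = 0.946) and Itga2 (r = 0.942). Within the 9 pregnant arrays Vegfa and Unc5b correlated at -0.92, and over all 14 at -0.68. Their PC61 and PBS arrays lay apart in opposite directions, so the value over the pregnant arrays includes that step between groups.

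Angpt2, Vegfa, Pecam1 and Cdh5 had more than 1 probe, and each gene above is represented by its brightest. Both Cdh5 probes were lowest on PC61 array 1: the second had 6.67 there and 9.39 to 10.36 on the other PC61 arrays, against 9.02 to 9.84 on the PBS arrays. Its PBS over non-pregnant value was 2.15 (SE 0.50), against 2.09 for the first. The second Vegfa probe had 0.50 (SE 0.24) for PC61 over PBS, against 0.51 for the first. However, it gave 7.54 and 7.55 on PC61 arrays 1 and 4, inside the PBS range of 7.26 to 7.93, so the separation of Vegfa between PC61 and PBS arrays rests on the brightest probe. The dim second Angpt2 probe was not above background on PC61 array 1, PBS arrays 2 and 4 or any non-pregnant array, so it has only a bound there. It had 5.15 to 5.70 on the other 3 PC61 arrays and 5.56 to 6.20 on the other 3 PBS arrays. With these values near background, its PBS over non-pregnant value was 1.04 (SE 0.27), against 3.22 for the first probe. Its PC61 over non-pregnant value of 0.70 (SE 0.29) did not pass (limma adjusted p over probes = 0.0853), against 2.32 for the first. The Pecam1 probes disagreed on PC61 array 1, where the brightest had 7.76, under all PBS arrays, and the second had 8.32, within the PBS range of 7.39 to 8.41. The third Pecam1 probe was not above background on PC61 array 1 and had 6.42 and 6.37 on arrays 2 and 3, above its PBS range of 4.80 to 5.29.

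**Figure D5:**
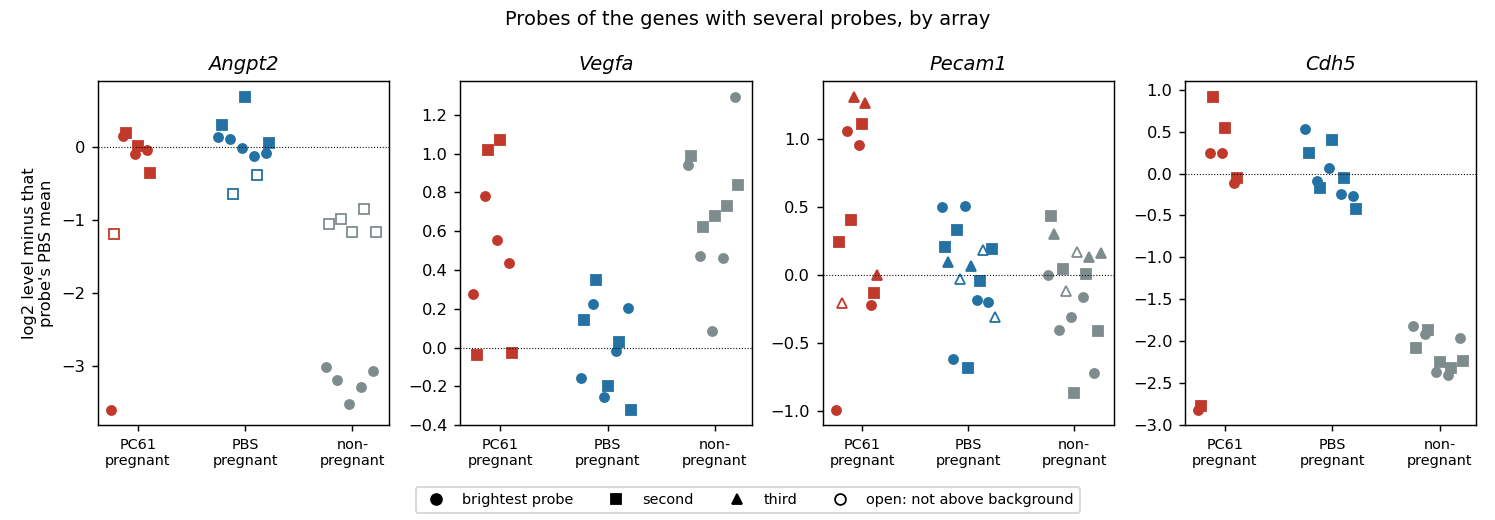
Log2 level minus that probe's own PBS mean (vertical axis) for each probe of Angpt2, Vegfa, Pecam1 and Cdh5 on each array, with circles, squares and triangles for the brightest probe, the second and the third and open symbols where the probe was not above background. Both Cdh5 probes lay far below 0 on 1 PC61 array, while the Pecam1 probes did not coincide there.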

How the data were processed

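The deposited intensity values are, per the file headers, 1 average per probe and array for 45281 probes, not normalized between arrays. A deposited detection p-value stands beside each, per the file headers. The authors' value table holds log2 values of 16948 probes, whose normalization is not given in the sources used here. It served as an alternative. RNA was labelled with biotin, per the labels' protocols. Intensities were processed with neqc in limma 3.58.1 (R 4.3.3): normexp background from the detection p-values, offset 16, quantile normalization and log2. Probes with detection p under 0.01 on at least 4 of 14 arrays were kept (20967). Of the annotated probes 15469 had 1 symbol, and the brightest represented its gene. Groups came from sample titles. Limma (lmFit, eBayes, 11 residual degrees of freedom) fitted 1 mean per group over all arrays. The fit was tested on simulated data. A probe not above background in a group has only a bound there, set against the lowest detected signal of each array. Precision is limited by how few arrays there are and by the spread among the PC61 arrays. The median SE was 0.23 for PC61 over PBS and 0.21 for PBS over non-pregnant. For Angpt2 in PC61 over PBS the SE was 0.57, and 0.15 without PC61 array 1.

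The members, lists and tests were chosen with earlier results of these data known. Named genes were the 8 members, in each comparison the 3 of lowest p from each pathway list and 4 from the endothelial list, the 2 nearest by correlation, and the 2 brightest markers of other cell types. These lists also covered blood, epithelium and leukocytes. Alternatives varied the source of values, background, scaling, filter, probe choice, variance model, array weights, arrays fitted, replicate block and each array left out.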

Additional observations from a re-analysis of the deposited data

Results flagged for a closer look

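Within the groups of 4 or 5 arrays, Dixon's test of the most distant value was applied to 24 combinations of gene and group, and 3 had an array far from the rest, all in the PC61 group. Chance alone sets apart about 1 in 20. Angpt2 was at 7.61 on PC61 array 1, with a gap of 0.932 of the group's range to the nearest array. Cdh5 was at 8.13 on the same array, with a gap of 0.882. Unc5b was at 6.71 on PC61 array 2, with a gap of 0.841.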

How the results depend on the processing

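Between PC61 and PBS uterus 0 of the 8 genes and 0 genes in all were called. Median scaling called 2 (Flt1 and Unc5b) and 303, and array weights called 5 (Vegfa, Flt1, Unc5b, Pecam1 and Emcn) and 4027. These weights were 0.166 and 0.173 for PC61 arrays 1 and 4, against 2.11 and 1.39 for arrays 2 and 3. With array weights the PC61 group thus rests mostly on arrays 2 and 3. Leaving out 1 array gave 0 to 3 of the 8 and 0 to 1528 in all, the highest without PC61 array 4, while 2 genes were called without PC61 array 1. The difference between the set medians was -1.52 to -0.33 with 1 array left out. For PC61 over non-pregnant, median scaling called 3 of the 8 and 1794 genes in all, against 5 and 2967, and array weights moved the set difference from -0.53 to -1.10. The cause was not tested. Median scaling moved the median of all genes to -0.30 for PC61 over PBS and 0.16 for PBS over non-pregnant, and there Tek (-0.35), Pecam1 (-0.16) and Emcn (-0.01) stood below 0 for PC61 over PBS. For PBS over non-pregnant 7 of the 8 were called with each array left out, and 5 with median scaling. Samples with the same number deviated together in 4 of 13 pairs (r over 0.1, range -0.17 to 0.33). Pairs with different numbers were not set beside these, so this check does not decide whether the numbers pair the samples. With the replicate block the call of Cdh5 in PC61 over non-pregnant was lost (1.46, adjusted p = 0.0760), and it changed no other call among the 8. Fitting only the 2 groups also lost it (adjusted p = 0.10). No called gene changed sign in any alternative run. The slide as a block was not run, since the files name no slide. The 4 PC61 arrays limit what that comparison can show.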
